A study of Homo sapiens with 6 samples.

Results

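The 10 genes described here encode ATPase, scaffold and form-defining subunits of the SWI/SNF chromatin remodelling complex. The data show where peaks of its subunits BRG1 and SMARCC2 were called in and around these genes. The genes are a list chosen by name, 10 of 20037 protein-coding genes, with these roles: the ATPases SMARCA4 and SMARCA2, the scaffolds SMARCC1 and SMARCC2, the ARID and polybromo subunits ARID1A, ARID1B, ARID2 and PBRM1, and the non-canonical subunits BICRA and BRD9. A peak was counted for a gene when its summit lay within the RefSeq gene span (GRCh38, the build of the deposited files) extended by 100 kb on each side. These windows held 131 of 44308 MR49F BRG1 peaks and 111 of 36174 LNCaP BRG1 peaks. They held 125 of 47615 MR49F SMARCC2 peaks and 82 of 25706 LNCaP SMARCC2 peaks. Peaks from any of the 4 lists were merged when they overlapped by 1 bp or more, which gave 166 regions at the 10 genes of 65483 in all.

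The peaks come from ChIP-seq, in which DNA bound by a protein is precipitated with an antibody and sequenced. MR49F is an enzalutamide-resistant line derived from LNCaP, here grown in medium with 10 µM of that antiandrogen, and LNCaP is the androgen-responsive human prostate cancer line grown in the same medium, for which no enzalutamide is named. Both lines were fixed with 2 mM DSG for 45 min and 1% formaldehyde for 10 min, and 4 µg of an antibody against BRG1 (the SMARCA4 protein) or SMARCC2 was used. There was 1 library per line and antibody, so no value below has a replicate error, no test between lines was possible, and line and drug cannot be told apart. Each line had 1 input, which was not analysed here. Where no peak is listed, the threshold of the peak calls (q-value 0.01) was not reached, and the depth of the libraries is not known from the peak lists.

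SWI/SNF uses the energy of ATP to slide or evict nucleosomes, and it is assembled around one of the mutually exclusive ATPases, SMARCA4 (BRG1) or SMARCA2 (BRM). SMARCC1 and SMARCC2 are the scaffold subunits of the complex. ARID1A or ARID1B marks the canonical BAF complex, ARID2 and PBRM1 mark PBAF, and BICRA with BRD9 marks the non-canonical complex. In prostate cancer cells the complex is known as a partner of the androgen receptor and of the factors that open chromatin for it.

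The start sequences that the results below turn on are shown first, from RefSeq (GRCh38.p14), each with 250 bases before and 50 after an annotated start. Capitals mark matches on either strand to the searched motifs, which were GGGCGG (SP/KLF), CCGGAAG (ETS), TGCGCA (NRF1), AAGATGG (YY1), CCAAT (NFY), TGAGTCA or TGACTCA (AP-1), TGTTTAC (FOXA), TGACGT (CRE) and CACGTG (E-box). SMARCA4 and ARID1B are shown because these starts had a summit within 1 kb in all 4 lists and a covering peak in 3. The starts of SMARCA2 and BICRA are shown as examples of starts where the lists with a peak over them differed between lines. At the first SMARCA2 start this held for SMARCC2 alone, and at the downstream BICRA start for BRG1 alone. Such differences were not particular to these genes. The starts of ARID1A and BRD9, which are not shown, had them too. At the SMARCA4 and ARID1B starts the list without a covering peak was LNCaP SMARCC2.
SMARCA4, chr19:10960780-10961079, plus strand: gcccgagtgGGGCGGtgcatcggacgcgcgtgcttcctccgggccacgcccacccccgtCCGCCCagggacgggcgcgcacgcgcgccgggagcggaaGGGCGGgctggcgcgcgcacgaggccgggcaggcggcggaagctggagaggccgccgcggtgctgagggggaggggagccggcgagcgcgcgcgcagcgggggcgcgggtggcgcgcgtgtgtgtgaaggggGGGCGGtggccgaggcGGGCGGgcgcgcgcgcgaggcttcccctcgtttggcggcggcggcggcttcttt
SMARCA2 first start, chr9:2015097-2015396, plus strand: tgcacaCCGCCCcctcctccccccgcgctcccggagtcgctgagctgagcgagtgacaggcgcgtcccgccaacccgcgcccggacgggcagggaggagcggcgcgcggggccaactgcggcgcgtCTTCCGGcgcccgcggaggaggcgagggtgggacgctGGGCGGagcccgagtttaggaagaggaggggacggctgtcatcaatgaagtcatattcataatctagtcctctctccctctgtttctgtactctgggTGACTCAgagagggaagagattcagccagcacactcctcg
SMARCA2 late internal start, chr9:2158214-2158513, plus strand: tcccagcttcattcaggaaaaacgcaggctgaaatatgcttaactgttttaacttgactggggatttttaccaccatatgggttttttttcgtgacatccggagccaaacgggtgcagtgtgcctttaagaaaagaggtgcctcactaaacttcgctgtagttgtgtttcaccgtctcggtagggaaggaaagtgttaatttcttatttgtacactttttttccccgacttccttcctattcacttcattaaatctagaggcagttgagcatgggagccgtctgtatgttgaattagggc
ARID1B, chr6:156777128-156777427, plus strand: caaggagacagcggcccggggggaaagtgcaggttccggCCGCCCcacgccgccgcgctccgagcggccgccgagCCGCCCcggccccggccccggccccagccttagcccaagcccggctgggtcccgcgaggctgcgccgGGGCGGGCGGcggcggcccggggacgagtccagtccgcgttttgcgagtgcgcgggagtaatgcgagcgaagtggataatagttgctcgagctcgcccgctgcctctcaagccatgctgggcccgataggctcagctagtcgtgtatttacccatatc
BICRA upstream start, chr19:47607946-47608245, plus strand: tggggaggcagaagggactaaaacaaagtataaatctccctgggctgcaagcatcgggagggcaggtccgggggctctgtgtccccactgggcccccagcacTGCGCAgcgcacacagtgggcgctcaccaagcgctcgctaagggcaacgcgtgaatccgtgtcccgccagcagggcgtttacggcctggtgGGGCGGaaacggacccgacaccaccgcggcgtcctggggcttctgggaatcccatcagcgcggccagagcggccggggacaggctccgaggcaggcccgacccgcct
BICRA downstream start, chr19:47608884-47609183, plus strand: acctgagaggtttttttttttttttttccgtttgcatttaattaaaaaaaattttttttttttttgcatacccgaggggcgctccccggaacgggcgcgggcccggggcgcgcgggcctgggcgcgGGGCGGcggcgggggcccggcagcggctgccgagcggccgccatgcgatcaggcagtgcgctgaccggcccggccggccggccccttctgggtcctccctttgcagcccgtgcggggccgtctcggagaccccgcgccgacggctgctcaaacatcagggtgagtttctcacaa

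The SMARCA4 start was the richest of these in CpG, with 55 CpG pairs, 81.3% G or C and 5 SP/KLF matches. The ARID1B start held 39 CpG pairs and 4 SP/KLF matches, with 1 overlapping pair. The first SMARCA2 start held 30 CpG pairs, 2 SP/KLF matches, 1 ETS match and 1 AP-1 match, whereas its late internal start held 9 CpG pairs, 43.0% G or C and no match to any searched motif. The BICRA starts held 26 and 35 CpG pairs. Among 22199 promoters of protein-coding genes, of the same length of 300 bp, the median was 21 CpG pairs and 62.3% G or C. An SP/KLF match was found in 56.3% of them, an ETS match in 12.8% and an AP-1 match in 4.01%. RefSeq starts were at hand for 7 of the 10 genes, as 15 start sequences. For SMARCC1, SMARCC2 and ARID2 the 2 ends of the gene span stand in for the start below.

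Across the 10 genes, the libraries of MR49F had more peaks than those of LNCaP with each antibody, by about the same margin as over the whole lists. MR49F peaks made up 54.1% of the BRG1 peaks at these genes (Wilson 95% interval 47.8 to 60.3, counting error only), against 55.1% of all BRG1 peaks. With SMARCC2 they made up 60.4% (53.6 to 66.8), against 64.9% of all SMARCC2 peaks. With each antibody MR49F had the higher count at 6 genes (SMARCA4, SMARCC2, ARID1A, ARID1B, PBRM1 and BICRA), and LNCaP had the higher count with each at 0. Over all protein-coding genes these calls held for 53.8% and 3.94%, and over genes with windows in the length range of these 10 for 53.3% and 4.46%, so the 6 of 10 is near the background. With the 10000 strongest peaks of each list, which makes the lists equal in length, the order of the counts turned. BRG1 gave 25 peaks in MR49F and 33 in LNCaP (43.1% MR49F, interval 31.2 to 55.9). SMARCC2 gave 15 in MR49F and 26 in LNCaP (36.6%, interval 23.6 to 51.9). Both intervals include equal shares, so no difference between the lines is shown at this setting. ARID1B alone held 3 of these MR49F and 12 of these LNCaP SMARCC2 peaks. Without ARID1B the MR49F shares were 44.2% for BRG1 and 46.2% for SMARCC2. Inside the gene spans alone, a setting added after the data were seen, the BRG1 counts were equal, with 54 peaks in MR49F and 54 in LNCaP, and SMARCC2 had 63 in MR49F and 51 in LNCaP.

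**Figure D1:**
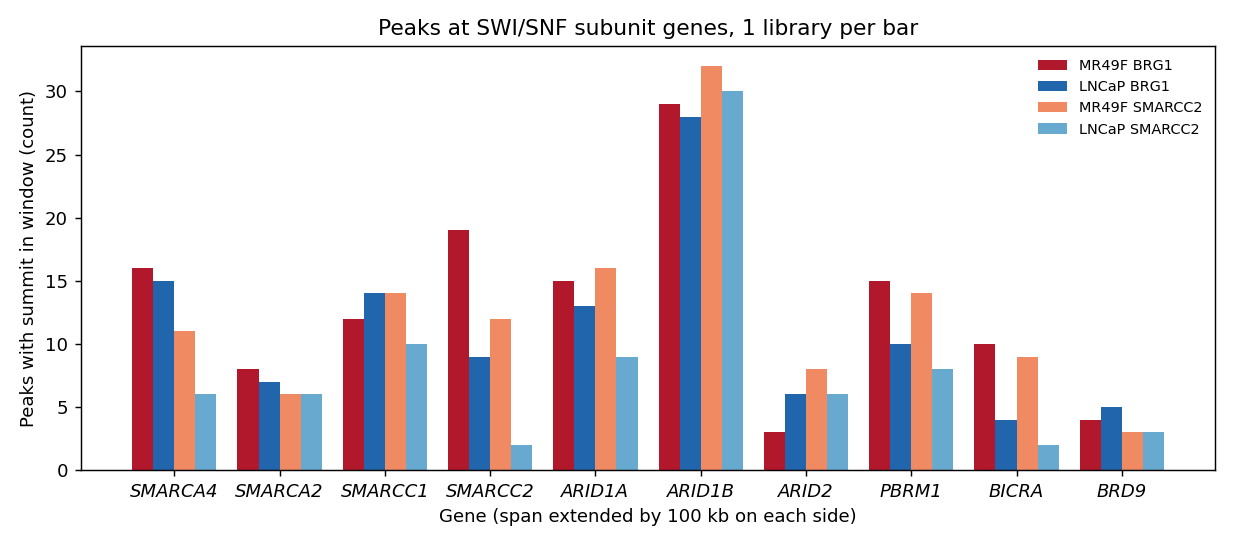
Number of peaks (vertical axis, count) whose summit lay in the window of each gene (horizontal axis), with 1 bar for each of the 4 libraries. ARID1B has the most peaks in every list, between 28 and 32, and the widest gaps between lines are at SMARCC2 and BICRA.

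Of the 166 regions, 47 (28.3%) were called in all 4 lists, against 22.7% of all regions of the series. A further 23 regions (13.9%) had peaks of both MR49F libraries and no LNCaP peak, against 18.3% of all regions. Peaks of both LNCaP libraries and no MR49F peak were found in 10 regions (6.02%), against 3.67% of all regions. The 2 single-line classes are named MR49F-only and LNCaP-only below. At least 1 region in all 4 lists was found at all 10 genes (background 74.0% of genes, and 80.7% of the 8999 genes with windows in the same length range). At least 1 MR49F-only region was found at 7 of the 10 genes (background 70.2% of genes) and at least 1 LNCaP-only region at 6 of 10 (background 21.5%). The windows are longer than most, at 227.1 to 634.8 kb with a median of 320.9 kb, against 224.1 kb over all genes. Among genes with windows in that range the single-line backgrounds were 73.9% and 25.7%. SMARCA4, SMARCA2, SMARCC1, ARID2 and BRD9 had more LNCaP-only than MR49F-only regions, which held for 6.95% of all genes and 8.19% of those with windows in that range. The margins were small: 1 against 0 at SMARCA4, ARID2 and BRD9, 3 against 2 at SMARCA2 and 2 against 1 at SMARCC1. At a −log10 q-value minimum of 5 only BRD9 of these genes kept the order, and ARID1B gained it (3 against 2). With summits within 200 bp only BRD9 kept it. With reciprocal overlap SMARCA2, SMARCC1 and ARID2 kept it.

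The classes lay in these places, with no test of the difference between them. Of the 10 LNCaP-only regions, 7 had their strongest summit within the named gene or 1 kb of its start, at SMARCA2, SMARCC1, ARID1B and ARID2, and 3 lay inside a neighbouring gene. Of the 23 MR49F-only regions, 7 lay in or at the start of the named gene, 9 lay within 1 kb of the start of a neighbour, 3 inside a neighbour and 4 between genes. Of the 47 regions in all 4 lists, 28 were in or at the named gene.

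**Figure D2:**
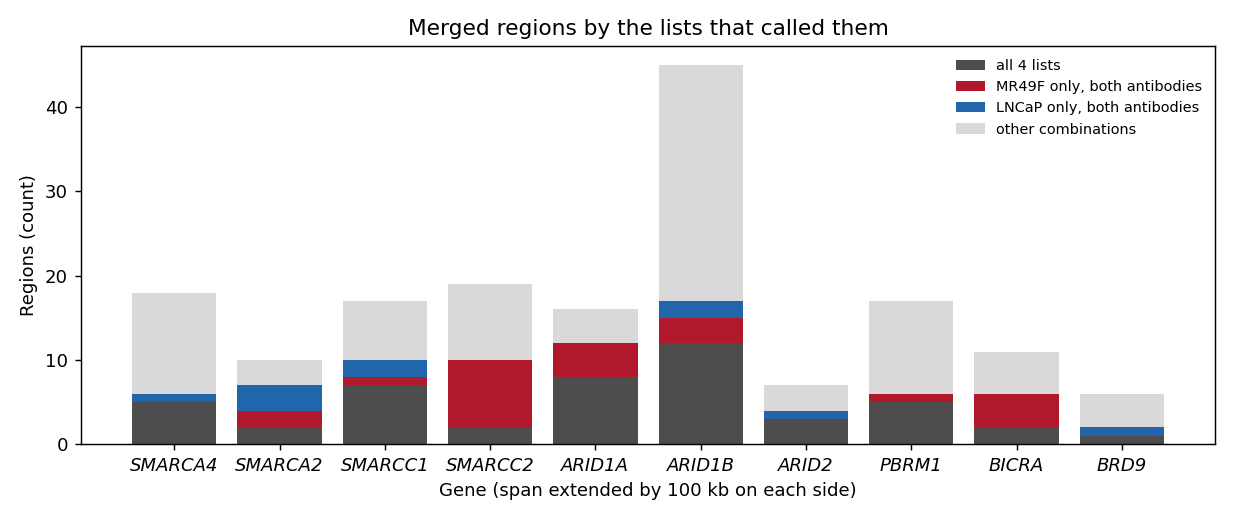
Number of merged regions at each gene (vertical axis, count; horizontal axis, gene), stacked by the lists that called them. SMARCC2 carries 8 MR49F-only regions and 0 LNCaP-only regions, whereas SMARCA2 carries 2 and 3.

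SMARCA4 (chromosome 19, 10961030 to 11062273) encodes BRG1, the ATPase that 1 of the 2 antibodies recognised. BRG1 peaks numbered 16 in MR49F and 15 in LNCaP, while the SMARCC2 antibody gave 11 in MR49F and 6 in LNCaP. The start at 10961030 had a summit within 1 kb in all 4 lists. The nearest summits lay 150 bp away in MR49F BRG1, 78 bp in LNCaP BRG1, 415 bp in MR49F SMARCC2 and 213 bp in LNCaP SMARCC2. The peaks there were of middling to low rank: the fold enrichment was 5.26 in MR49F BRG1, 3.24 in LNCaP BRG1, 5.97 in MR49F SMARCC2 and 2.67 in LNCaP SMARCC2. Within their own lists these folds stood at percentiles 59.3, 21.7, 60.5 and 4.86 in the same order. Fold is the deposited value of the authors' peak caller, the percentile was computed from it, and both are read within a list only, since lists of different length and depth rank differently.

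The other annotated SMARCA4 start, at 10984124, had no summit within 1 kb in any list, and the nearest lay 6885 bp away in LNCaP BRG1. The strongest region in all 4 lists (by the lowest of its fold percentiles) lay upstream of the gene, at 10938749 to 10940619, between genes and 9.01 kb from an end of TIMM29. Its folds were 7.83 in MR49F BRG1, 4.12 in LNCaP BRG1, 7.07 in MR49F SMARCC2 and 3.92 in LNCaP SMARCC2. The single LNCaP-only region of the window, at 11152102 to 11153595, lay inside SPC24, a kinetochore gene, 168.4 kb from the nearest SMARCA4 start, with folds of 5.52 for BRG1 and 3.21 for SMARCC2. In the 10 Mb around SMARCA4 the local background under peaks, solved from fold and p-value, was lower in MR49F than in LNCaP, at 0.860 times for BRG1 and 0.861 for SMARCC2, relative to autosomes. Its part in the counts was not tested.

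SMARCA2 (chromosome 9, 2015347 to 2193620) encodes BRM, the alternative ATPase, and no other protein-coding gene reached into its window. Peak totals were close, with 8 BRG1 peaks in MR49F and 7 in LNCaP, and 6 SMARCC2 peaks in each line. The places were not the same. The gene has 4 annotated starts, and peaks clustered at the first 2 and at the last 2. Around the first start a region from 2014263 to 2018504 was in all 4 lists. Its strongest peaks had folds of 7.82 in MR49F BRG1, 6.90 in LNCaP BRG1, 9.53 in MR49F SMARCC2 and 2.61 in LNCaP SMARCC2. The region at the second start, from 2021523 to 2024991, was also in all 4 and was the stronger by its lowest percentile, with folds of 5.80, 2.81, 9.27 and 4.10 in the same order. The 300 bases of the first start shown above lay wholly under the MR49F SMARCC2 peak and under no peak of the other 3 lists.

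The late internal starts of SMARCA2 went the other way. Around the start at 2158464 an LNCaP-only region ran from 2158264 to 2159336, with folds of 4.44 in LNCaP BRG1 and 5.56 in LNCaP SMARCC2, at percentiles 61.8 and 79.1 of their lists. Its summits lay 121 bp and 39 bp from the start. In MR49F the nearest BRG1 summit lay 83748 bp away. An MR49F SMARCC2 peak of 567 bp with a fold of 3.28, at percentile 8.70, lay upstream with its summit 707 bp away and 95 bp from the neighbouring internal start at 2157662. Of the sequence shown for this start, 158 bases lay under the LNCaP BRG1 peak and 250 under the LNCaP SMARCC2 peak, against 0 under an MR49F BRG1 and 8 under an MR49F SMARCC2 peak. A second LNCaP-only region followed at 2159946 to 2161094, with folds of 4.03 for BRG1 and 3.30 for SMARCC2, and another, with low folds of 2.19 and 2.58, at 2178221 to 2179031.

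The MR49F-only regions of SMARCA2 lay elsewhere. One, from 2029585 to 2030646, was inside the gene 7.94 kb past the second start, with folds of 3.01 for BRG1 and 4.94 for SMARCC2. The other, from 2291721 to 2293009, lay 98.8 kb beyond the gene, with folds of 3.44 and 6.42. The local background ratio of MR49F to LNCaP was 1.07 for BRG1 and 1.08 for SMARCC2, and its part in the calls was not tested.

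SMARCC1 (chromosome 3, 47585269 to 47781893) encodes the scaffold also called BAF155. Here the antibodies pointed in opposite directions: BRG1 peaks numbered 12 in MR49F and 14 in LNCaP, while the SMARCC2 antibody gave 14 in MR49F and 10 in LNCaP. The upper-coordinate end of the gene carried a region in all 4 lists, with the nearest summits 444 bp away in MR49F BRG1, 220 bp in LNCaP BRG1, 539 bp in MR49F SMARCC2 and 241 bp in LNCaP SMARCC2. The folds of the strongest peak there lay between 3.54 and 3.79 in the 4 lists. No list had a summit within 1 kb of the lower-coordinate end. Its window held 7 regions in all 4 lists, the strongest inside the gene at 47703245 to 47705192, with folds of 6.48 in MR49F BRG1, 5.08 in LNCaP BRG1, 5.99 in MR49F SMARCC2 and 4.79 in LNCaP SMARCC2.

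Of the 2 LNCaP-only regions at SMARCC1, 1 lay inside the gene at 47616908 to 47617780, with folds of 5.69 for BRG1 and 4.00 for SMARCC2, and the other inside MAP4, a microtubule-binding protein gene, at 47874423 to 47875447, with folds of 4.73 and 3.82. The MR49F-only region, at 47512233 to 47513526, lay 0.558 kb from an end of ELP6, an Elongator subunit gene, with folds of 4.97 and 3.87. Local background was 1.10 times as high in MR49F as in LNCaP for BRG1 and 1.18 times for SMARCC2.

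SMARCC2 (chromosome 12, 56162359 to 56189483) encodes the scaffold recognised by the other antibody, and its window showed the widest gap between lines. BRG1 peaks numbered 19 in MR49F and 9 in LNCaP, while the SMARCC2 antibody gave 12 in MR49F and 2 in LNCaP. This was the densest window for MR49F BRG1, at 8.37 peaks per 100 kb, and 14 other protein-coding genes reached into it. Inside the span of SMARCC2 itself MR49F had 1 peak with each antibody, and LNCaP had 1 BRG1 peak and 0 SMARCC2 peaks. These lay near the upper-coordinate end, with summits 518 bp away in MR49F BRG1, 513 bp in LNCaP BRG1 and 604 bp in MR49F SMARCC2. The folds were 7.01, 3.84 and 7.19 in that order. The nearest LNCaP SMARCC2 summit lay 60902 bp from that end.

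The 8 MR49F-only regions at SMARCC2 all had their strongest summit in or near other genes. Of these 8, 7 lay within 1 kb of a neighbour's start, and the strongest, at 56103760 to 56104221, was 0.459 kb from an end of PA2G4, with folds of 5.23 for BRG1 and 4.52 for SMARCC2. The next by summed −log10 q-value lay inside RNF41 at 56215733 to 56216576 (folds 2.86 and 6.44) and near a start of RNF41, a ubiquitin ligase gene, at 56220529 to 56221671 (folds 5.96 and 3.24). The strongest region in all 4 lists lay by ERBB3, the receptor kinase gene, at 56079029 to 56082866, with folds of 8.11 in MR49F BRG1, 8.55 in LNCaP BRG1, 9.20 in MR49F SMARCC2 and 4.03 in LNCaP SMARCC2. Local background was 1.30 times as high in MR49F as in LNCaP for BRG1 and 1.43 times for SMARCC2, the highest ratios of the 10 genes. Their part in the gap was not tested. With peaks counted only where SMARCC2 was the gene with the nearest end, 1 MR49F and 1 LNCaP BRG1 peak and 1 MR49F and 0 LNCaP SMARCC2 peaks were left.

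**Figure D3:**
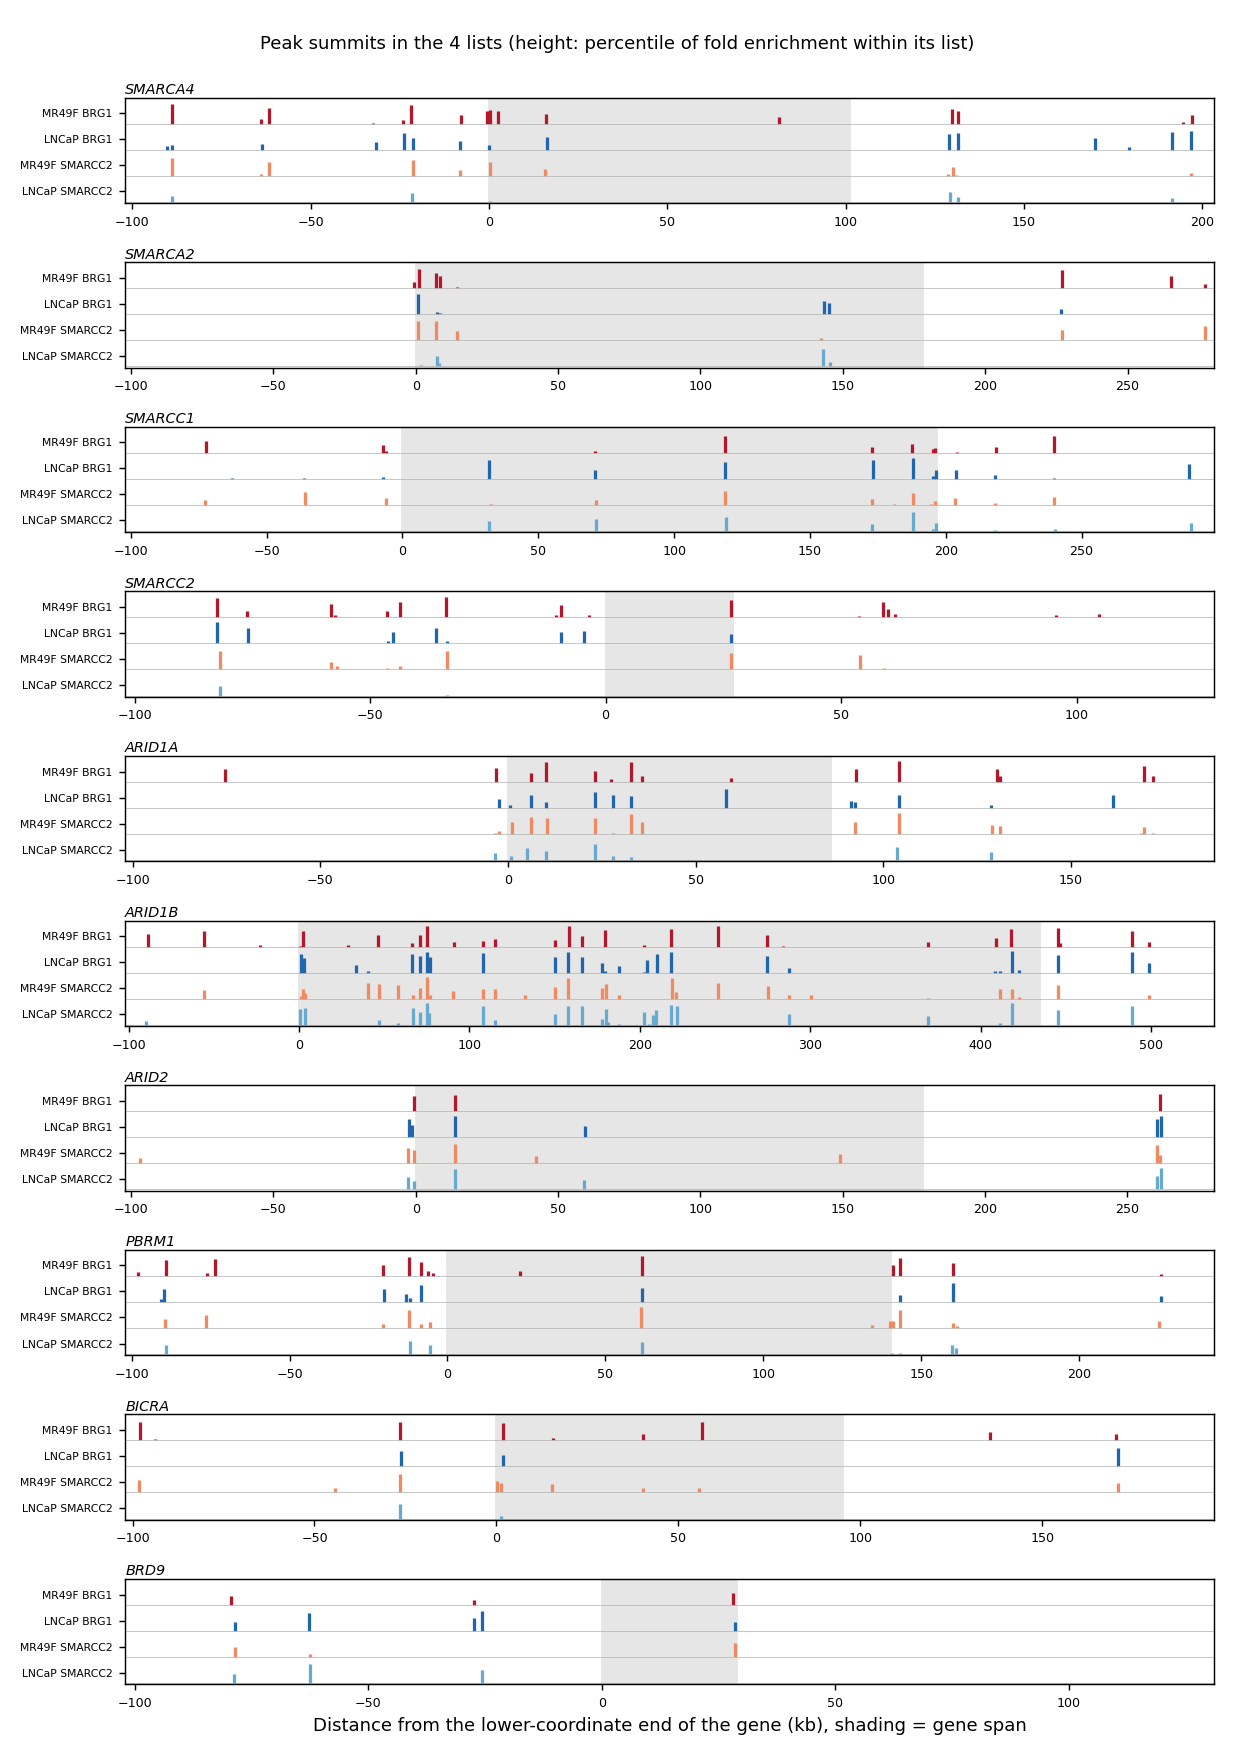
Peak summits in the 4 lists along the window of each gene, with distance from the lower-coordinate end of the gene in kb on the horizontal axis, gene spans shaded, and line height giving the percentile of fold enrichment within its list. At SMARCC2 nearly every summit lies outside the shaded gene, while at ARID1B most lie inside it, and at SMARCA2 the LNCaP lists hold a cluster inside the gene, toward its upper end, that the MR49F BRG1 list lacks.

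ARID1A (chromosome 1, 26696015 to 26782104) encodes an ARID subunit of canonical BAF and is a frequent target of inactivating mutation in cancer. BRG1 peaks numbered 15 in MR49F and 13 in LNCaP, while the SMARCC2 antibody gave 16 in MR49F and 9 in LNCaP. The start lay inside a region of 6079 bp in all 4 lists, from 26691863 to 26697941. An MR49F BRG1 peak of 5637 bp and an MR49F SMARCC2 peak of 2989 bp covered the start, with summits 3308 bp and 1163 bp away. The LNCaP peaks left the start itself uncovered, with nearest summits 564 bp away for BRG1 and 708 bp for SMARCC2. A rule on summit distance and a rule on coverage therefore give opposite answers at this gene: the 1 kb rule counts the LNCaP lists and not the MR49F lists, and the coverage rule does the reverse.

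ARID1A had 8 regions in all 4 lists, of which 5 had their strongest summit inside the gene. The region at the start had its strongest summit upstream, inside LOC124900417. The strongest region lay outside, in PIGV, a gene of glycolipid anchor synthesis, at 26799552 to 26801098. Its folds were 11.99 in MR49F BRG1, 4.29 in LNCaP BRG1, 18.1 in MR49F SMARCC2 and 4.49 in LNCaP SMARCC2, at percentiles 96.5, 57.9, 97.4 and 58.1. There were 4 MR49F-only and 0 LNCaP-only regions. The strongest MR49F-only region, at 26864290 to 26865991, was 1.10 kb from an end of SFN, a cell cycle regulator gene, with folds of 6.30 for BRG1 and 4.33 for SMARCC2. The next lay inside ARID1A at 26731078 to 26731934 (folds 3.87 and 5.63) and at the start of ZDHHC18 at 26827020 to 26827519 (folds 3.89 and 4.57). Local background ratios were 1.05 and 1.04.

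ARID1B (chromosome 6, 156776026 to 157210779), the paralogue of ARID1A in canonical BAF, is the longest of the genes at 434.8 kb and carried the most peaks. The counts were nearly equal between lines, with 29 BRG1 peaks in MR49F and 28 in LNCaP, while the SMARCC2 antibody gave 32 in MR49F and 30 in LNCaP. Per 100 kb of window they came to 4.57 in MR49F BRG1, 4.41 in LNCaP BRG1, 5.04 in MR49F SMARCC2 and 4.73 in LNCaP SMARCC2. LNCaP SMARCC2 thus had its highest density of the 10 genes at ARID1B, where the other 3 lists did not. The start shown above, at 156777378, had summits 589 bp away in MR49F BRG1, 268 bp in LNCaP BRG1, 380 bp in MR49F SMARCC2 and 522 bp in LNCaP SMARCC2.

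The body of ARID1B held a series of strong shared regions. The strongest of its 12 regions in all 4 lists, at 156850847 to 156851981, lay 73.9 kb past the start. Its folds were 9.38 in MR49F BRG1, 6.80 in LNCaP BRG1, 21.3 in MR49F SMARCC2 and 10.7 in LNCaP SMARCC2, at percentiles 91.9, 92.5, 98.4 and 97.9 of their lists. The 3 MR49F-only regions included one inside the gene at 157020936 to 157022131, with folds of 9.06 for BRG1 and 6.79 for SMARCC2, and one 56.0 kb before the gene at 156719334 to 156720544, with folds of 6.19 and 4.78. The weakest, at 156866312 to 156866845 inside the gene, had folds of 3.66 and 4.59. The LNCaP-only regions lay close together inside the gene, at 156979791 to 156981150 and at 156984222 to 156986456, the stronger with folds of 5.82 for BRG1 and 4.94 for SMARCC2. Local background was lower in MR49F than in LNCaP here, at 0.858 times for BRG1 and 0.833 for SMARCC2. Its part was not tested. Among the 10000 strongest peaks of each list, ARID1B kept 6 of BRG1 from MR49F and 9 from LNCaP, and 3 of SMARCC2 from MR49F and 12 from LNCaP.

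ARID2 (chromosome 12, 45729706 to 45908037) encodes the ARID subunit of PBAF and had the sparsest window for MR49F BRG1, at 0.793 peaks per 100 kb. BRG1 peaks numbered 3 in MR49F and 6 in LNCaP, while SMARCC2 peaks numbered 8 in MR49F and 6 in LNCaP. Of the 3 MR49F BRG1 peaks 2 were wide, and the third, inside the gene, was 648 bp against 956 bp for the LNCaP BRG1 peak there. At the lower-coordinate end 1 MR49F BRG1 peak of 4648 bp lay in the same region as 2 LNCaP BRG1 peaks of at most 1187 bp. At SCAF11, a splicing factor gene, 1 MR49F BRG1 peak of 2908 bp again met 2 LNCaP BRG1 peaks. All 3 MR49F BRG1 peaks were in regions of all 4 lists.

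The region in all 4 lists at the lower-coordinate end of ARID2, from 45725634 to 45731204, had folds of 5.86 in MR49F BRG1, 5.39 in LNCaP BRG1, 5.90 in MR49F SMARCC2 and 4.48 in LNCaP SMARCC2, at percentiles 68.0, 80.7, 59.8 and 57.7. The other 2 ranked higher. Inside the gene at 45743071 to 45744357 the folds were 6.49 in MR49F BRG1, 8.06 in LNCaP BRG1, 9.91 in MR49F SMARCC2 and 7.30 in LNCaP SMARCC2, at percentiles 75.0, 96.5, 87.7 and 91.8. At SCAF11 (45989255 to 45992949), the strongest of them, they were 6.58, 8.52, 8.90 and 8.40 in the same order. The LNCaP-only region lay inside ARID2 at 45788604 to 45789322, with folds of 4.05 for BRG1 and 3.99 for SMARCC2, and there was no MR49F-only region. Local background was 1.20 times as high in MR49F as in LNCaP for BRG1 and 1.27 times for SMARCC2.

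PBRM1 (chromosome 3, 52545367 to 52685913) encodes the polybromo subunit of PBAF, which reads acetylated histones. BRG1 peaks numbered 15 in MR49F and 10 in LNCaP, while the SMARCC2 antibody gave 14 in MR49F and 8 in LNCaP. Its starts, at 52685599 and 52685913, were covered by no peak. From the start at 52685913 summits lay 494 bp away in MR49F BRG1, 347 bp in MR49F SMARCC2 and 289 bp in LNCaP SMARCC2. The nearest LNCaP BRG1 summit was 2555 bp away. The peaks nearest that start lay on the side of GNL3, a neighbouring nucleolar protein gene. From the other start, at 52685599, an MR49F SMARCC2 summit lay 274 bp away inside PBRM1, with a fold of 4.33. The strongest of 5 regions in all 4 lists was inside the gene at 52605758 to 52608675, with folds of 8.16 in MR49F BRG1, 4.57 in LNCaP BRG1, 12.5 in MR49F SMARCC2 and 4.39 in LNCaP SMARCC2. The single MR49F-only region lay inside NISCH at 52468240 to 52469545, with folds of 3.17 for BRG1 and 5.76 for SMARCC2. Local background ratios were 1.06 and 1.10.

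BICRA (chromosome 19, 47608196 to 47703277) encodes a subunit particular to the non-canonical complex. BRG1 peaks numbered 10 in MR49F and 4 in LNCaP, while the SMARCC2 antibody gave 9 in MR49F and 2 in LNCaP. Both antibodies called the upstream start, at 47608196, in MR49F and in no LNCaP list, in a region from 47607761 to 47608592 with folds of 2.79 for BRG1 and 5.46 for SMARCC2. The BRG1 fold there stood at percentile 3.73 of its list, close to the caller's threshold, with the summit 4 bp from the start. All 300 bases shown for this start lay under the MR49F SMARCC2 peak and 54 under the MR49F BRG1 peak, against 0 under LNCaP peaks. The downstream start, at 47609134, had summits within 1 kb in all 4 lists. The region from 47609123 to 47611123 had folds of 6.91 in MR49F BRG1, 4.15 in LNCaP BRG1, 4.98 in MR49F SMARCC2 and 3.02 in LNCaP SMARCC2.

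The other MR49F-only regions of BICRA were 2 inside the gene, at 47647505 to 47649269 (folds 3.99 for BRG1 and 3.89 for SMARCC2) and at 47623477 to 47624045 (folds 3.15 and 4.71), and 1 of 3527 bp inside NAPA, a membrane fusion gene, at 47509331 to 47512857 (folds 7.57 and 5.66). No LNCaP-only region was found. Around BICRA the MR49F local background was lower than that of LNCaP, at 0.785 times for BRG1 and 0.897 for SMARCC2. Its part in the counts was not tested. The strongest region in all 4 lists, at 47581604 to 47582236 between genes, had folds of 7.19 in MR49F BRG1, 4.84 in LNCaP BRG1, 8.54 in MR49F SMARCC2 and 4.80 in LNCaP SMARCC2.

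BRD9 (chromosome 5, 863741 to 892801) encodes the bromodomain subunit of the non-canonical complex and had few peaks. BRG1 peaks numbered 4 in MR49F and 5 in LNCaP, and SMARCC2 peaks 3 in each line. A region across its starts, from 891542 to 894014, was called in 3 lists, with folds of 4.92 in MR49F BRG1, 3.72 in LNCaP BRG1 and 6.22 in MR49F SMARCC2. The nearest LNCaP SMARCC2 summit lay 54327 bp from the start at 892550. The same region holds an end of TRIP13, a meiotic checkpoint ATPase gene, so the peaks cannot be given to one of these genes. The LNCaP-only region, at 837972 to 838763 in ZDHHC11, had folds of 6.82 for BRG1 and 4.59 for SMARCC2. The region in all 4 lists lay at ZDHHC11B, at 783922 to 785899, with folds between 3.83 and 4.99. ZDHHC11 and ZDHHC11B are closely similar copies, so reads placed between them are uncertain. Local background ratios were 1.08 and 1.01.

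**Figure D4:**
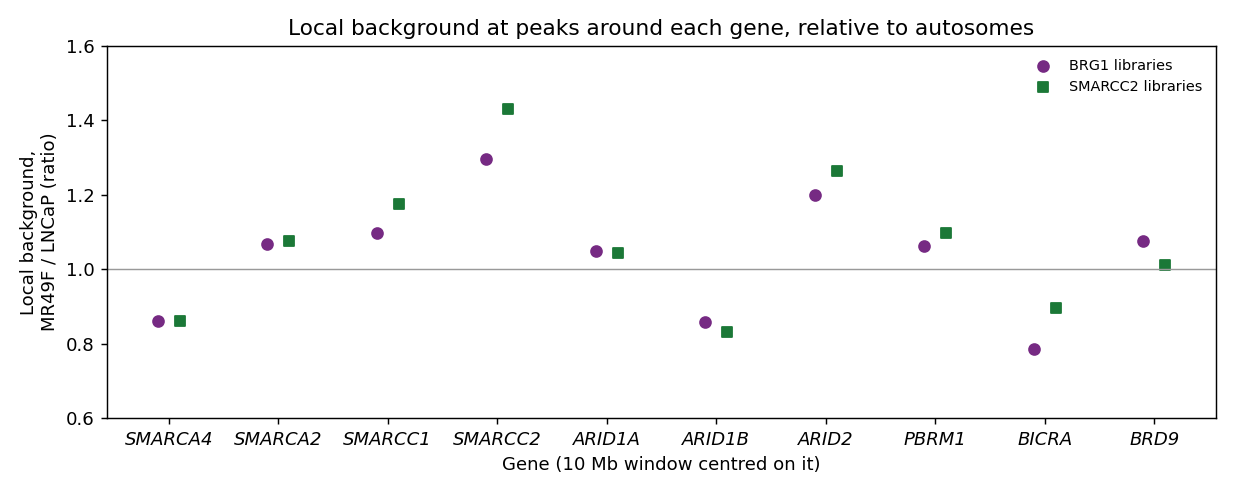
Ratio of local background under peaks, MR49F over LNCaP (vertical axis, each relative to the autosomes of its library), in the 10 Mb around each gene (horizontal axis), with circles for the BRG1 and squares for the SMARCC2 libraries. SMARCC2 and ARID2 lie above 1.1 with both, SMARCA4, ARID1B and BICRA below 0.9 with both.

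At the starts as a group, a summit within 1 kb was present in all 4 lists at 5 of the 10 genes (SMARCA4, SMARCA2, SMARCC1, ARID1B and BICRA), against 20.0% of all protein-coding genes and 28.3% of those with windows of the same range. The rule pools all starts of a gene, and the lists may differ in the start they meet. SMARCA2 had 4 starts, ARID1A 1 and the other genes 2 starts or gene ends each. These backgrounds were not matched for the number of starts, so they are not like for like. When a peak had to cover some start of the gene in each list, this held for SMARCA2 alone, and only when its starts were pooled, since no start of SMARCA2 was covered in more than 2 lists. MR49F BRG1 covered the start at 2021945, and the LNCaP lists covered the one at 2158464. By the same pooled rule it held for 6.12% of all genes and 9.05% of those with windows of the same range. Where a list was missing within 1 kb it was LNCaP SMARCC2 at SMARCC2 and BRD9, LNCaP BRG1 at ARID2 and PBRM1, and both MR49F lists at ARID1A.

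Within a line, most peaks at these genes overlapped a peak of the other antibody. In MR49F, 76.3% (Wilson 95% interval 68.4 to 82.8) of 131 BRG1 peaks overlapped a SMARCC2 peak and 81.6% (73.9 to 87.4) of 125 SMARCC2 peaks overlapped a BRG1 peak. In LNCaP the shares were 64.0% (54.7 to 72.3) of 111 BRG1 peaks and 89.0% (80.4 to 94.1) of 82 SMARCC2 peaks. Over the whole lists the shares were 79.8% and 75.7% in MR49F, and 55.3% and 80.1% in LNCaP.

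The remaining subunits of the complex, 19 genes such as SMARCB1, DPF2 and SS18, gave 152 BRG1 peaks in MR49F and 113 in LNCaP, while the SMARCC2 antibody gave 130 in MR49F and 61 in LNCaP. That is an MR49F share of 57.4% and 68.1%. Of these 19, 12 had a higher MR49F count with each antibody and 0 a higher LNCaP count with each, 17 had an MR49F-only region and 4 an LNCaP-only region. Over all protein-coding genes these calls held for 53.8%, 3.94%, 70.2% and 21.5%, in that order. The summed difference was widest, at 12 peaks, at DPF2, a BAF subunit gene, with 14 BRG1 and 10 SMARCC2 peaks in MR49F against 10 and 2 in LNCaP. It was 11 at ACTL6B, a neuronal actin-like subunit gene, with 15 and 11 against 7 and 8, and also 11 at BCL7B (11 and 7 against 4 and 3) and BCL7C (12 and 12 against 10 and 3). At the other end ACTL6A had 3 and 3 against 4 and 3, and SMARCD2 had 8 and 9 against 12 and 6.

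ATPases of the other remodeller families, 17 genes of the ISWI, CHD and INO80 kinds among others, had shares of 55.4% with BRG1 and 66.97% with SMARCC2. Of these, 8 had a higher MR49F count with each antibody and 0 a higher LNCaP count with each. An MR49F-only region was found at 13 of them and an LNCaP-only region at 5. The shares of all protein-coding genes for these calls were 53.8%, 3.94%, 70.2% and 21.5%, in the same order. The summed difference was 13 at ATRX, with 8 BRG1 and 8 SMARCC2 peaks in MR49F against 1 and 2 in LNCaP. It was 12 both at SMARCA1, with 6 and 8 against 1 and 1, and at SRCAP, with 14 and 9 against 10 and 1. CHD7 and SMARCA5 had no summed difference, CHD7 with 8 and 4 peaks in MR49F against 7 and 5 in LNCaP, and SMARCA5 with 1 and 2 against 2 and 1. Among these 36 genes, the one whose 4 peak counts were most like those of SMARCA2 was CHD1 (Bray-Curtis dissimilarity 0.0526), of PBRM1 ACTL6B (0.0682), of BRD9 ACTL6A (0.0714) and of SMARCC2 DPF2 (0.103). ARID1B had no close match, its nearest being CHD6 at 0.315. These values rest on 4 counts each.

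The lines carried peaks at luminal prostate genes. Of 8 luminal marker genes, which include KLK3, FOLH1 and STEAP2, all 8 had a summit within 1 kb of a start in at least 1 list, and FOLH1 and STEAP2 in all 4. Of 9 marker genes of hepatocytes, leukocytes and skeletal muscle, 4 had such a summit in at least 1 list and 0 in all 4.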

How the data were processed

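The deposited files are 4 MACS2 peak lists, 1 per line and antibody. The build hg38 and the tools BWA 0.7.10, SAMtools and MACS2 2.1.0 are named, with no further settings, per the submitters' processing notes. How duplicates were treated and whether inputs served as controls is not stated in the labels. For each peak the deposited columns hold a fold enrichment (ratio over local background), a −log10 p-value, a −log10 q-value and an integer score made by the authors' caller, and the q-values all lie under 0.01. These are values per peak, not counts, so there is no count test.

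Computed here with Python 3.11.15, NumPy 2.4.6, pandas 2.3.3 and SciPy 1.17.1 were summit counts in gene spans extended by 100 kb, regions of peaks sharing at least 1 bp, fold percentiles within a list, and local background solved from fold and p-value. Peaks with −log10 p of 300 or more were left out of the background. MR49F pileups solved as whole numbers (median residual 1.24e-05 and 1.46e-05 in −log10 p), and LNCaP ones did not (0.0671 and 0.0707). The local background is therefore less exact in LNCaP. The scripts were tested on simulated data.

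Groups came from the sample titles. Named per gene were its start region, its strongest region in all 4 lists by the lowest fold percentile, and up to 3 single-line regions by summed −log10 q-value. Where RefSeq gave no start sequence, both gene ends were used. Exons and introns were not told apart. The genes and lists were chosen with earlier results of these data known. Alternatives were a −log10 q-value minimum of 5, the 10000 strongest peaks, other windows, other overlap rules and other start rules.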

Additional observations from a re-analysis of the deposited data

Results flagged for a closer look

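At 2 genes the antibodies differed in direction between the lines, which was not tested, since there was 1 library each. The share of all protein-coding genes with such a difference was not computed, so this count has no background. At SMARCC1 the count of MR49F minus LNCaP peaks was -2 with BRG1 and 4 with SMARCC2. At ARID2 it was -3 with BRG1 and 2 with SMARCC2. MR49F peaks made up 46.2% of BRG1 and 58.3% of SMARCC2 peaks at SMARCC1, and 33.3% and 57.1% at ARID2. With each antibody these shares lay under those of the whole lists, which were 55.1% for BRG1 and 64.9% for SMARCC2.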

How the results depend on the processing

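Of 45 recomputed values, 22 stayed within the margin set and 23 moved. At a −log10 q-value minimum of 5, 1 gene had more LNCaP peaks with both antibodies (0 as reported), 30 regions were in all 4 lists (47) and 3 genes had a start peak in all 4 (5). With the 10000 strongest peaks, the MR49F share was 43.1% for BRG1 and 36.6% for SMARCC2, 2 genes had more MR49F and 4 more LNCaP peaks, 6 regions were in all 4 lists, 2 were MR49F-only and 6 LNCaP-only (23 and 10), and 0 genes had a start peak in all 4. Without ARID1B these MR49F shares were 44.2% and 46.2%. The gene and region counts at this setting were not computed over all genes or regions. The backgrounds given above are for the settings as reported and do not apply to them. The same holds for the other alternatives here, apart from the rule of a peak over a start. With a 10 kb extension, 1 gene had more LNCaP peaks, 30 regions were in all 4 lists and 7 were MR49F-only. Counting by nearest gene end left 22 and 8. Summits within 200 bp gave 24 regions in all 4 lists and reciprocal overlap 27. A summit within 500 bp of the start, or a peak over any of its starts, left 1 gene. The span without extension, chosen after seeing the data, gave 1 gene with more LNCaP peaks, 28 regions in all 4 lists and 7 MR49F-only regions. The LNCaP-only count was 7 to 11 under every alternative run but the 10000 strongest peaks. The cause was not tested. No paired analysis was possible because each line and antibody had 1 library, and for the same reason no replicate could be left out. Read depth is not known, so no upper limit on binding can be given where a peak is missing from a list.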
